A study of Mus musculus and Rattus norvegicus with 28 samples.

Results

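The genes followed here, which carry out or support glutathione conjugation and quinone, heme and thiol chemistry, number 10. They are 5 glutathione transferases, Gstm1, Gstm2, Gstm5, Gstp1 and Gsta4, and 5 textbook targets of the transcription factor NRF2, namely Hmox1, Nqo1, Gclm, Txnrd1 and Srxn1. They were taken by symbol, with no threshold on a measured value, and a gene's level was the sum of FPKM (fragments per kilobase of transcript, scaled to the mapped fragments of the library) over its annotated transcripts. All 10 had a row among 55450 mouse genes, and all 10 were among the 13979 that reached an FPKM of 1 in at least 2 libraries and were tested. In the rat, 8 of the 10 had a row by symbol among 32623 genes, and those 8 were among the 13625 tested with the filter of 1 FPKM in at least 3 libraries. Gstm2 and Srxn1 had no rat row under those symbols and have no rat value here. Within 50 kb of the mouse genes' transcript starts lay 67 of the 63444 regions of open chromatin that at least 2 of the 8 ATAC-seq libraries shared.

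NRF2, encoded by Nfe2l2, is held in the cytoplasm and marked for degradation by KEAP1, and electrophiles or oxidants that modify KEAP1 let it reach the nucleus. There it pairs with a small MAF protein and binds the antioxidant response element, while BACH1 represses some of the same genes, Hmox1 above all. Birth moves the heart from the low oxygen of the womb to air, and the ventricle then shifts towards oxidative metabolism and loses most of its capacity to regenerate.

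The study followed ventricular cells through that window. RNA-seq and ATAC-seq, which cuts accessible DNA with a transposase, were done on cells labelled cardiomyocyte from the left ventricles of wild-type C57BL/6 mice of both sexes at embryonic day 18.5 (E18.5) and postnatal days 1, 3 and 7 (P1, P3 and P7), with 2 libraries of each kind per time point. A second experiment used left ventricular cells from Sprague Dawley rats at postnatal day 1, plated and from the next day exposed to 100 nM trichostatin A (TSA), an inhibitor of histone deacetylases, or to its solvent DMSO, with 3 RNA libraries per group. Every preparation was a trypsin and collagenase digest that was preplated to let attaching cells be discarded, so each library can hold other heart cells, and the labels do not say which animals or litters went into it. The p-values below therefore measure the spread between these libraries.

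The RNA libraries held 4.40 to 5.63 gigabases of aligned sequence in the mouse and 4.23 to 5.77 in the rat, as computed from the ratio of transcript coverage to FPKM. Marker lists moved strongly with age, and this touches every comparison below. The summed FPKM of 10 cardiomyocyte markers ran from 24767 to 32128 at E18.5 and from 843 to 1962 at P7, and all 10 fell. The sum of 10 fibroblast markers was 518 to 530 at E18.5, 1601 to 1907 at P1 and 3668 to 4507 at P7, and all 10 rose by P7. The 7 erythroid markers summed to 29046 to 35395 at E18.5 and to at most 41.0 in any postnatal library, and all 7 fell by P7, with Slc4a1 listed at 0 at P3 and P7. Over the same interval, from E18.5 to P7, 8 smooth muscle and pericyte markers went from 416 to 543 up to 1660 to 1866 (4 rose and 2 fell). The sums were 46.6 to 48.1 and 110 to 130 for 8 macrophage markers, of which 1 rose and 1 fell among 7 tested. They were 103.3 to 109.5 and 301.6 to 310.8 for 6 epicardial markers, of which 2 rose. They were 247 to 456 and 330 to 384 for 8 endothelial markers, of which 1 rose and 2 fell. The part of these shifts in the values of the 10 genes was not tested, and in such mixed samples fewer cells of a type and less RNA per cell cannot be told apart.

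**Figure D1:**
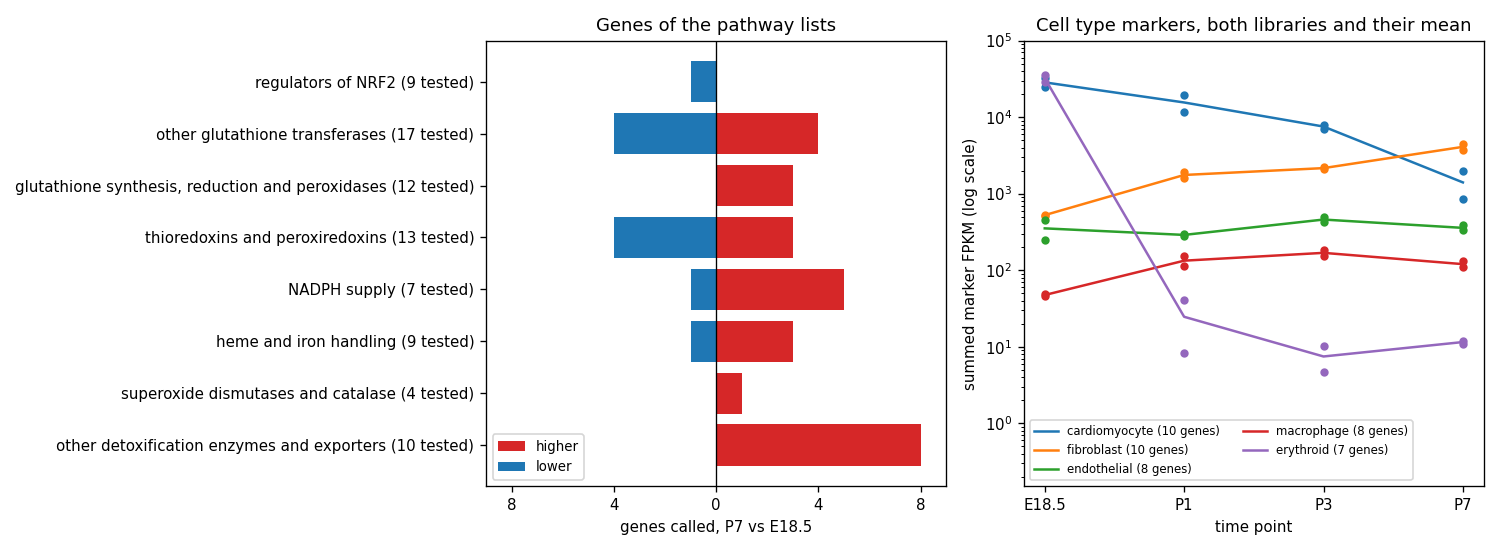
The left panel counts, for each pathway list, the genes called higher (red, to the right) or lower (blue, to the left) at P7 against E18.5, and the right panel gives the summed FPKM of 5 marker lists (log scale) against time point, with a point for each library and a line through the means. The cardiomyocyte and erythroid sums decline after E18.5 and the fibroblast sum climbs, while 8 of 10 other detoxification genes and 5 of 7 NADPH supply genes rose. The lists were chosen with earlier results of these data known.

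Of the 10 genes, 1 rose from E18.5 to P1, 2 to P3 and 4 to P7, and none fell. Nqo1 rose at all 3 ages, by 6.51 to 9.83 times. Gstm1 rose about 2-fold at P3 and P7, and Gstm2 and Srxn1 rose at P7. "Rose" and "fell" stand throughout for an adjusted p under 0.05 together with a log2 fold change beyond 1, from limma on log2(FPKM + 1) across all genes tested, a scale that understates the change of low genes. By that rule 16.2% of all tested genes were called at P1, 21.9% at P3 and 27.7% at P7, made up of 10.1%, 13.0% and 15.4% called higher and 6.06%, 8.88% and 12.3% called lower. All 3 comparisons share the same E18.5 libraries. The median log2 fold change of the 10 genes was 0.33, 0.57 and 0.71, against 0.15, 0.16 and 0.14 over all tested genes.

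**Figure D2:**
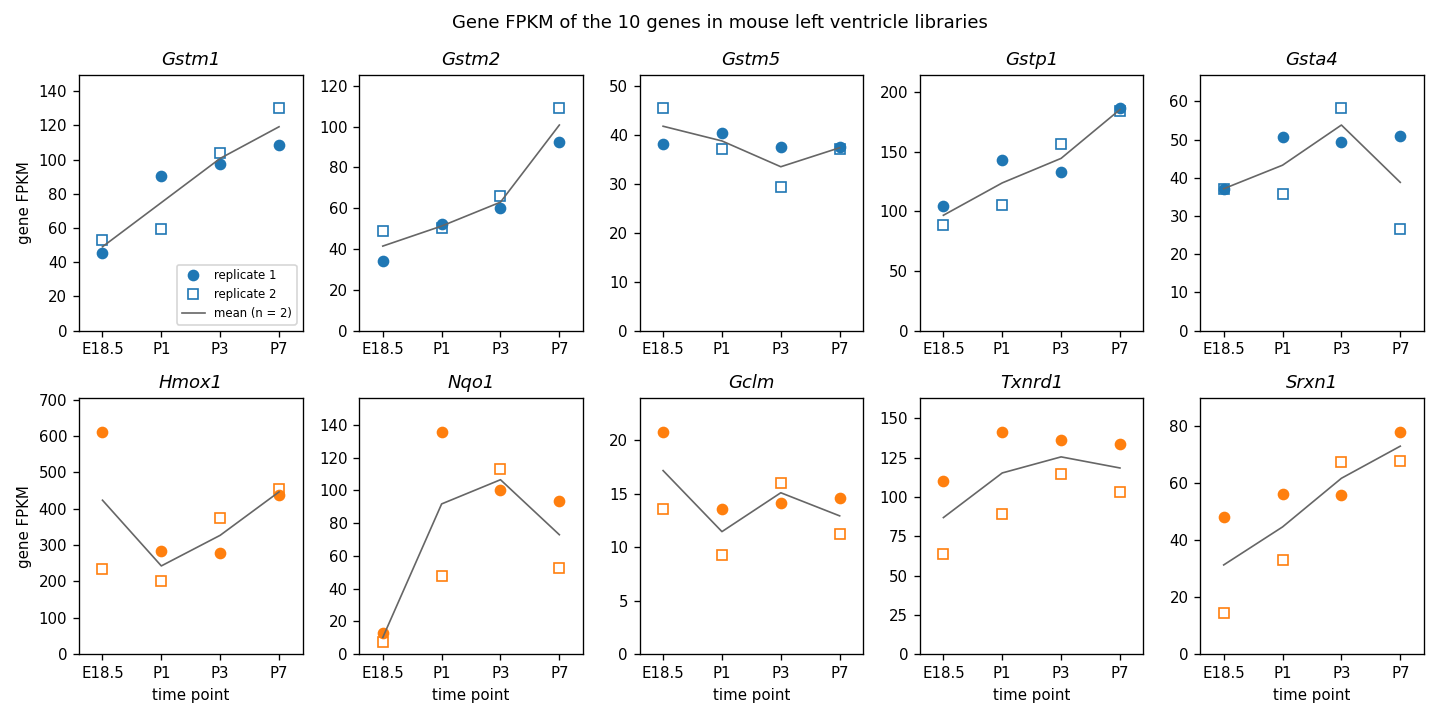
FPKM of each of the 10 genes (vertical axes, linear and from 0) at the 4 time points, with replicate 1 as filled circles, replicate 2 as open squares and a line through the means (n = 2), transferases in blue and NRF2 targets in orange. Nqo1 steps up between E18.5 and P1, the means of Gstm1, Gstm2 and Gstp1 are highest at P7, and the E18.5 pair is widely spread for Hmox1 and Srxn1.

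The letters upstream of the 4 genes that rose are shown here because ATAC-seq peaks covered their promoters, in all 8 libraries except for Gstm2, as described further on. They come from RefSeq (GRCm38.p6) and end before the first annotated transcript start. Capitals mark a match to TGACNNNGC, the core of the antioxidant response element, or to TGANTCAGC, a related form that overlaps both this core and the AP-1 site TGACTCA, on either strand. Of these 4 windows only that of Srxn1 holds such a match, to TGANTCAGC alone, a form added after sequences had been seen.
Nqo1 (chr8:107403207-107403455, minus strand): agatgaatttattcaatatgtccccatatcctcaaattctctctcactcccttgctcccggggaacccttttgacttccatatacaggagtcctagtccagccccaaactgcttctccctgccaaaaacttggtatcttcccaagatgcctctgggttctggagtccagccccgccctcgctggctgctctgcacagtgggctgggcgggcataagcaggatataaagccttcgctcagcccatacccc
Srxn1 (chr2:152105274-152105515, plus strand): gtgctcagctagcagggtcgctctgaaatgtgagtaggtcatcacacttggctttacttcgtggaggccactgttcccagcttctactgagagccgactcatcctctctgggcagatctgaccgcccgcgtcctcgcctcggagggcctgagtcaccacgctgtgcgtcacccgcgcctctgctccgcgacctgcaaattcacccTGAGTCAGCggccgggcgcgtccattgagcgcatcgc
Gstm1 (chr3:108017974-108018223, minus strand): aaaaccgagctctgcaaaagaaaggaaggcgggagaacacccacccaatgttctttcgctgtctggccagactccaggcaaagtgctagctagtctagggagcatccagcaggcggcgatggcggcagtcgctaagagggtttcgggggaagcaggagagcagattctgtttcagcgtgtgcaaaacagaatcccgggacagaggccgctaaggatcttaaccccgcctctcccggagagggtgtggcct
Gstm2 (chr3:107986454-107986670, minus strand): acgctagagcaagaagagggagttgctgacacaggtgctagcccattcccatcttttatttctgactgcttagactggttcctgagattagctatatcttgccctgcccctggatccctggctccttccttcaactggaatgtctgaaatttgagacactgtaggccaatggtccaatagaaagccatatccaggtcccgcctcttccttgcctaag
That the Nqo1, Gstm1 and Gstm2 windows hold no match says only that these letters are not in these bases. Open regions within 50 kb that held TGACNNNGC around the median summit numbered 1 for Gstm1, 2 for Gstm2, 1 for Srxn1 and 0 for Nqo1. That of Gstm1, in its own intron (chr3:108013247-108013938), is also counted for Gstm2. That of Srxn1 is its promoter region (chr2:152105020-152106075), with TGACCTAGC outside the bases printed.

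Gstm1, Gstm2 and Gstm5 encode mu-class transferases, which join glutathione to electrophiles, and lie in a cluster on chromosome 3 (mm10 108012255-108017973 on the minus strand, 107981702-107986453 on the minus strand and 107895821-107898686 on the plus strand). Gstm1 stood at 45.3 and 52.7 FPKM at E18.5, then 90.5 and 59.2 (P1), 97.5 and 104 (P3) and 108 and 130.0 (P7). Every postnatal library was above both E18.5 libraries. The log2 fold change was 0.57 for P1 (SE 0.20, limma adjusted p = 0.0521), 1.03 for P3 (SE 0.20, adjusted p = 0.00394) and 1.26 for P7 (SE 0.20, adjusted p = 0.0011). The P3 value sits at the edge of the fold limit, and it was 0.98 without P3 replicate 2 and 0.92 without E18.5 replicate 1, where Gstm1 was no longer called. Gstm2 stood at 34.0 and 48.9 FPKM at E18.5, then 52.4 and 50.2 (P1), 60.0 and 65.9 (P3) and 92.5 and 109 (P7). The groups did not overlap at any age, and P7 was also above both P3 libraries. Its log2 fold change was 0.32 for P1 (SE 0.18, limma adjusted p = 0.179), 0.61 for P3 (SE 0.18, adjusted p = 0.0215) and 1.28 for P7 (SE 0.18, adjusted p = 0.000527), so it rose at P7 alone among these 3 comparisons. Gstm5 was not called at any age. It stood at 38.1 and 45.5 FPKM at E18.5, then 40.4 and 37.2 (P1), 37.6 and 29.4 (P3) and 37.6 and 37.2 (P7), with log2 fold changes of -0.10, -0.32 and -0.15 (SE 0.15 each) and limma adjusted p-values of 0.627, 0.124 and 0.428. Its P3 and P7 values lay below both E18.5 values by less than 1 FPKM at the nearest, and P1 overlapped.

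Gstp1, the pi-class transferase (chromosome 19, 4035407-4037985, minus strand), was the second most abundant of the 10 genes at every age. It stood at 104.6 and 89.0 FPKM at E18.5, then 143 and 105.1 (P1), 133 and 156 (P3) and 187 and 184 (P7). Every postnatal value was above both at E18.5, at P1 by less than 1 FPKM for the nearest pair. The log2 fold change was 0.34 for P1 (SE 0.17, limma adjusted p = 0.142), 0.57 for P3 (SE 0.17, adjusted p = 0.0234) and 0.94 for P7 (SE 0.17, adjusted p = 0.00208), so the P7 difference passed on p and missed the fold limit. Without E18.5 replicate 1 it was 1.05 and passed both. Gstp1 is the least certain of the levels, since 52.8% of the 100-base windows of its leading transcript also occur in Gstp2 or a pseudogene. The same share was 7.7% for Gstm1, 0.6% for Gstm2 and 0 for the other 7 genes. Gsta4, an alpha-class transferase that acts on aldehydes from lipid peroxidation (chromosome 9, 78182774-78209349, plus strand), stood at 37.1 and 37.1 FPKM at E18.5, then 50.8 and 35.8 (P1), 49.4 and 58.2 (P3) and 51.0 and 26.5 (P7). The P7 pair brackets the E18.5 pair. The log2 fold change was 0.20, 0.52 and -0.01 (SE 0.29 each, adjusted p = 0.614, 0.169 and 0.978).

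Nqo1, a quinone reductase that uses NADH or NADPH (chromosome 8, 107388225-107403206, minus strand), showed the steepest change. It stood at 13.0 and 7.51 FPKM at E18.5, then 136 and 47.7 (P1), 99.9 and 113 (P3) and 93.3 and 52.5 (P7). Every postnatal library was above both E18.5 libraries, and the postnatal groups overlapped one another for P1 with P3 and for P1 with P7. The log2 fold change from E18.5 was 2.90 for P1 (SE 0.47, limma adjusted p = 0.00233), 3.30 for P3 (SE 0.47, adjusted p = 0.000909) and 2.70 for P7 (SE 0.47, adjusted p = 0.00175). At E18.5 Nqo1 was the lowest of the 10 genes, and it was the fourth highest at P1 and P3 and the sixth at P7. The first P1 library was 2.84 times the second.

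Srxn1 encodes sulfiredoxin, which repairs over-oxidised peroxiredoxins (chromosome 2, 152105516-152111376, plus strand). It stood at 48.0 and 14.5 FPKM at E18.5, then 56.0 and 33.1 (P1), 55.9 and 67.3 (P3) and 77.9 and 67.8 (P7). The E18.5 libraries differed by 3.30 times, the P1 pair overlapped them, and the P3 and P7 pairs lay above them. The log2 fold change was 0.68 for P1 (SE 0.47, limma adjusted p = 0.281), 1.18 for P3 (SE 0.47, adjusted p = 0.0706) and 1.42 for P7 (SE 0.47, adjusted p = 0.0332). The P7 call turned on single libraries. Without E18.5 replicate 2 the P7 value was 0.59 (adjusted p = 0.154), and it was 1.32 (adjusted p = 0.112) and 1.51 (adjusted p = 0.0769) without P7 replicates 1 and 2. Without E18.5 replicate 1, Srxn1 was called at P1 as well, at 1.51 (adjusted p = 0.0121), and at P3, at 2.0 (adjusted p = 0.00359).

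Hmox1, which degrades heme to biliverdin, carbon monoxide and iron (chromosome 8, 75093621-75100589, plus strand), was the most abundant of the 10 genes at every age, with mean FPKM of 423, 243, 327 and 446. It stood at 611 and 236 FPKM at E18.5, then 283 and 202 (P1), 278 and 375 (P3) and 439 and 454 (P7). The highest of the 8 values and the second lowest were thus the E18.5 pair, which differed by 2.60 times and overlapped every other group. The log2 fold change was -0.66 at P1, -0.23 at P3 and 0.23 for P7 (SE 0.39 each, limma adjusted p = 0.208, 0.653 and 0.636). Without E18.5 replicate 2 the P1 value was -1.35 with an adjusted p of 0.0124, a call for lower Hmox1 at P1 that rests on the first E18.5 library.

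Gclm, the modifier subunit of the ligase that starts glutathione synthesis (chromosome 3, 122245557-122270732, plus strand), stood at 20.8 and 13.5 FPKM at E18.5, then 13.6 and 9.30 (P1), 14.2 and 16.0 (P3) and 14.6 and 11.3 (P7). It was the lowest of the 10 genes after birth and overlapped E18.5 at all 3 ages. Its log2 fold changes were -0.54, -0.15 and -0.36 (SE 0.25 each, limma adjusted p = 0.116, 0.646 and 0.24). Txnrd1, the cytosolic thioredoxin reductase (chromosome 10, 82833951-82897712, plus strand), stood at 110.0 and 63.9 FPKM at E18.5, then 141 and 89.2 (P1), 136 and 115 (P3) and 134 and 103.5 (P7). The P1 and P7 pairs overlapped E18.5 and the P3 pair lay above it. The log2 fold changes were 0.42, 0.57 and 0.48 (SE 0.29 each, adjusted p = 0.286, 0.142 and 0.196). At E18.5 and at P1 every NRF2 target (Hmox1, Nqo1, Gclm, Txnrd1 and Srxn1) was higher in replicate 1, while the order was mixed at P3 and P7. Cardiomyocyte marker sums were lower in replicate 1, at 24767 against 32128 (E18.5) and 11798 against 19287 (P1). The part of this in the gene values was not tested.

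Not overlapping with E18.5 was common among all genes. It held for 4 of the 10 genes at P1 (69.6% of all tested genes), 8 at P3 (74.8%) and 6 at P7 (78.3%), a share of the 10 that was below the background at P1 and P7 and near it at P3. Between postnatal ages none of the 10 was called. The shares called among all genes were 0.0143% for P3 against P1, 8.91% for P7 against P1 and 3.55% for P7 against P3. Of all 13979 tested genes, 1577, 4334 and 2589 had an unadjusted limma p under 0.05 in these comparisons. Among the 10 genes the numbers were 0, 3 and 1. The 3 for P7 against P1 were transferases, Gstm2 at a log2 fold change of 0.96 (SE 0.18, limma adjusted p = 0.00805), Gstm1 at 0.69 (SE 0.20, adjusted p = 0.0499) and Gstp1 at 0.59 (SE 0.17, adjusted p = 0.0455). Each missed the fold limit, and Gstm2 passed it at 1.07 (adjusted p = 0.021) without P7 replicate 1. Nqo1 was at -0.20 in that comparison (SE 0.47, adjusted p = 0.826).

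**Figure D3:**
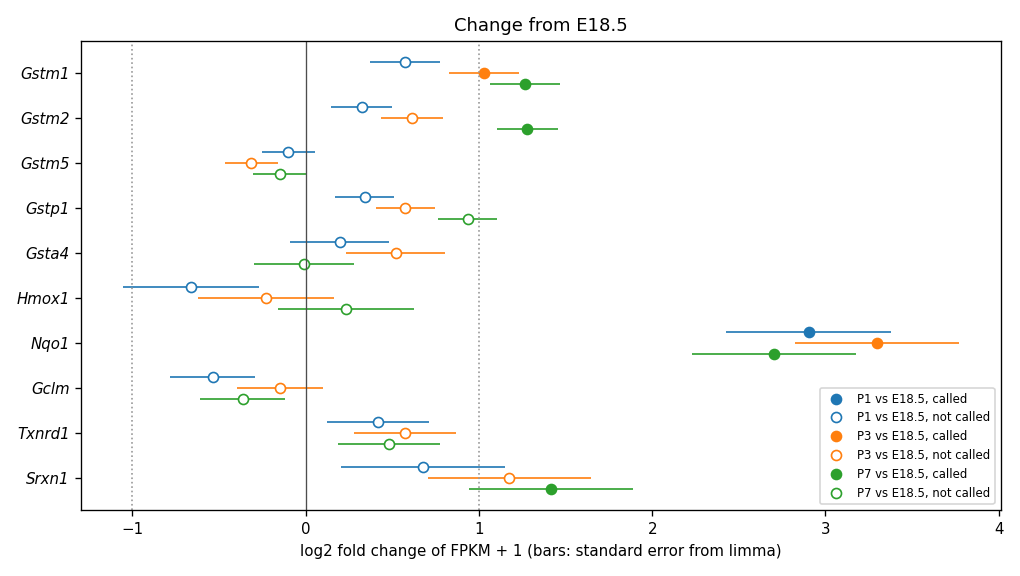
Log2 fold change of FPKM + 1 (horizontal axis) for each of the 10 genes at P1 (blue), P3 (orange) and P7 (green) against E18.5 in the mouse, with limma's standard errors as bars, called values filled, others open, and dotted lines at the fold limit. Nqo1 lies at 2.70 to 3.30 at all 3 ages, and the other filled points are Gstm1 at P3 and P7 and Gstm2 and Srxn1 at P7.

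Nfe2l2, Keap1 and Bach1 were not called at any age. Nfe2l2 stood at 71.4 and 48.9 FPKM at E18.5 and at 85.9 and 88.6 at P7 (log2 fold change 0.56, SE 0.18, limma adjusted p = 0.0284, under the fold limit). Keap1 was at 16.6 and 13.8 FPKM at E18.5 and at 21.0 and 15.3 at P7 (0.23, SE 0.19, adjusted p = 0.316). Bach1 stood at 13.7 and 12.3 FPKM at E18.5, then 7.58 and 7.38 (P1), 8.24 and 7.75 (P3) and 9.48 and 11.4 (P7). All postnatal Bach1 values were below E18.5, with a log2 fold change of -0.72 for P1 (SE 0.15, adjusted p = 0.00613), -0.64 for P3 (SE 0.15, adjusted p = 0.00822) and -0.29 for P7 (SE 0.15, adjusted p = 0.128), none of them past the fold limit. Of the 9 regulators tested, none rose, and 2 fell at P1, 1 at P3 and 1 at P7. Mafk, a small MAF partner named here after its values were seen because it is the P7 call, stood at 53.9 and 63.8 FPKM at E18.5 and 17.3 and 17.3 at P7 (log2 fold change -1.71, SE 0.17, adjusted p = 0.0001).

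Around the 10 genes, the lists of related enzymes differed in their counts. The lists were chosen with earlier results of these data known, so their counts are descriptive. The NADPH supply list counted 5 of 7 genes risen at P1, 6 at P3 and 5 at P7, with 1 fallen each time, and its P7 median was 1.55. G6pdx, the entry enzyme of the pentose phosphate pathway, stood at 7.84 and 4.31 FPKM at E18.5 and 85.3 and 80.9 at P7 (log2 fold change 3.62, SE 0.28, limma adjusted p = 3.3e-05). Tkt, a transketolase, rose by 1.86 (SE 0.14) and cytosolic Idh1 by 1.61 (SE 0.14). Idh2, the mitochondrial isocitrate dehydrogenase, went the other way, from 1018 and 1341 FPKM to 99.1 and 82.6 (log2 fold change -3.68, SE 0.18, adjusted p = 7.41e-06). The 10 cardiomyocyte markers fell over the same interval, and their part in the Idh2 value was not tested.

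Other detoxification enzymes and exporters rose without exception among those called, 6 of 10 at P1 and 8 of 10 at both P3 and P7, with a P7 median of 1.81. Ephx1, a microsomal epoxide hydrolase, went from 5.20 and 5.54 FPKM to 102 and 113 (log2 fold change 4.08, SE 0.19, limma adjusted p = 5.85e-06). Aldh3a1, an aldehyde dehydrogenase, rose by 3.10 (SE 0.43), Akr1b8, an aldo-keto reductase, by 3.08 (SE 0.35) and Abcc1, an exporter of glutathione conjugates, by 2.83 (SE 0.27). The 17 other glutathione transferases tested showed no common direction, with 3 risen and 3 fallen at P1 and 4 of each at P3 and P7. Gsta3 rose from 0.468 and 0.853 FPKM to 26.9 and 25.9 (log2 fold change 4.05, SE 0.22) and Mgst1, a microsomal transferase, from 18.4 and 16.0 to 173 and 151 (3.16, SE 0.14). Mgst3 fell by 3.49 (SE 0.26) and Gstm7, another gene of the mu-class family, by 2.47 (SE 0.20) on the log2 scale.

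Of 12 genes for glutathione synthesis, reduction and peroxidases, 2 rose at P1 and 3 at both later ages, and 1 fell, at P3. The P7 calls were the peroxidases Gpx7 at 2.31 (SE 0.16) and Gpx8 at 2.04 (SE 0.15), which reside in the endoplasmic reticulum, and Gsr, glutathione reductase, at 1.16 (SE 0.22, limma adjusted p = 0.00285). Among 13 thioredoxin and peroxiredoxin genes 3 rose and 4 fell at P7, after 0 and 2 at P1 and 2 and 3 at P3. Prdx4 rose by 1.67 (SE 0.14) and Txn1 by 1.50 (SE 0.12), while Txnip, which binds and inhibits thioredoxin, fell by 1.61 (SE 0.15) and Sesn1 by 2.05 (SE 0.27). Among 9 heme and iron genes none was called at P1, and 3 rose and 1 fell at P3 and at P7. Those at P7 were Blvrb, a biliverdin reductase, at 1.75 (SE 0.24), the ferritin heavy chain Fth1 at 1.20 (SE 0.16), the heme transporter Slc48a1 at 1.10 (SE 0.13) and the iron exporter Slc40a1 at -1.33 (SE 0.37, adjusted p = 0.0167). Sod3, the extracellular superoxide dismutase, was the 1 call among 4 superoxide dismutase and catalase genes at each age, at 3.39 (SE 0.21) by P7.

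The ATAC-seq peak lists were of unequal length, from 13149 to 95257 peaks per library, and counts of genes with a peak are read against all tested genes. A peak within 2.5 kb of a transcript start was present in both libraries for 7 of the 10 genes at E18.5, 8 at P1 and all 10 at P3 and P7. The same held for 56.7%, 41.3%, 87.5% and 83.2% of all tested genes. With the full peak lists, the genes without one were all transferases. Gstm2 lacked a promoter peak in both E18.5 libraries, Gstm5 in E18.5 replicate 1 and P1 replicate 2, and Gsta4 in both E18.5 and both P1 libraries. Under a stricter threshold, a −log10 q of at least 5, the P1 count was 3, against 24.1% of all tested genes. With 13149 top peaks from every library the counts from E18.5 to P7 were 7, 6, 8 and 6, against 54.1%, 31.5%, 37.3% and 45.2% of all tested genes. The P1 count turns on replicate 2, whose list gave 3 under the stricter threshold against 9 for replicate 1. Under both alternatives NRF2 targets also lacked a promoter peak in some libraries. With equal numbers of top peaks Gclm lacked one in both P3 libraries and P7 replicate 1, and Hmox1 in P7 replicate 2. Under the stricter threshold Hmox1, Gclm and Srxn1 lacked one in P1 replicate 2. Nqo1 and Gclm lacked one in E18.5 replicate 2 under that threshold, and Hmox1 in P7 replicate 2.

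With the full peak lists the Nqo1 promoter had a peak in both libraries at every age. Under the stricter threshold it had none in E18.5 replicate 2. Its peak, listed with MACS2's fold enrichment over local background at the summit, read 7.06 and 5.39 at E18.5, then 10.5 and 5.38 (P1), 6.90 and 12.6 (P3) and 6.64 and 6.35 (P7). Every postnatal pair of peak heights overlapped the E18.5 pair, while no postnatal pair of RNA levels did. Fold enrichment was not rescaled between libraries and was not tested. At the Srxn1 promoter it read 10.1 and 8.49 at E18.5, then 8.97 and 4.41 (P1), 7.14 and 10.9 (P3) and 5.28 and 5.40 (P7), lowest at P7 except for the second P1 library. At the Gstm1 promoter it ran from 5.0 to 8.48 over the 8 libraries. The Gstm2 promoter, with no E18.5 peak, read 6.40 and 4.18 (P1), 10.5 and 8.65 (P3) and 7.81 and 6.03 (P7). A region about 1 kb upstream of the annotated main start of Gsta4 (chr9:78190670-78191255) had a peak at P3 and P7 alone, at 8.16 and 5.69 and at 6.04 and 4.03. The lists of those ages were the longest, and with equal numbers of top peaks only 1 library held this region.

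**Figure D4:**
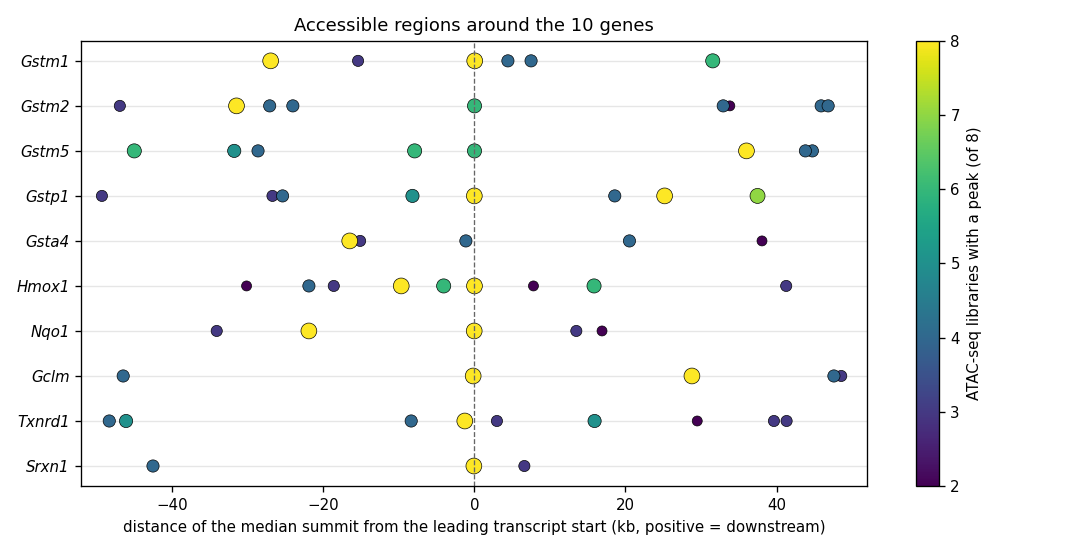
Open regions near each of the 10 genes, placed by the distance of their median summit from the leading transcript start (horizontal axis, kb, positive downstream), with colour and size giving how many of the 8 libraries had a peak. The axis ends near 50 kb, so regions assigned through other transcript starts beyond it are not drawn. Hmox1 has a region in all 8 libraries at its start and another 9.67 kb upstream, and Gsta4 has none in all 8 at its leading start.

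Of the 67 regions 14 had a peak in all 8 libraries. The number per gene ran from 3 for Srxn1 to 13 for Txnrd1, with neighbouring Gstm genes sharing some. Hmox1 had 9, of which 3 held an element match, all upstream. The nearest 2 are shown because they had peaks in most libraries, while the one 30.13 kb upstream (chr8:75063114-75063722), in an intron of Tom1, had peaks at P3 alone. The region 9.67 kb upstream (chr8:75083534-75084138) was present in all 8 libraries, with fold enrichments of 5.87 and 7.94 at E18.5, then 10.5 and 5.01 (P1), 10.9 and 9.50 (P3) and 7.47 and 6.06 (P7). The one 4.05 kb upstream (chr8:75089129-75090031) had peaks in 6 libraries, none of them at P1. The 300 bases around their median summits read as follows on the plus strand, with capitals marking matches to TGACNNNGC on either strand. The first holds 3, each also a match to TGANTCAGC and each containing the AP-1 site TGACTCA. The second holds 1, without that site.
Hmox1 9.67 kb upstream (chr8:75083805-75084104): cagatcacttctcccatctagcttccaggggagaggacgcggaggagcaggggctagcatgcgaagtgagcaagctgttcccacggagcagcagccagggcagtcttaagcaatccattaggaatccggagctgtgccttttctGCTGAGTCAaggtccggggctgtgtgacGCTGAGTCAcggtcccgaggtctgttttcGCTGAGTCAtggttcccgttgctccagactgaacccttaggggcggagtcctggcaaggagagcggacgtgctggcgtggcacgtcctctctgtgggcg
Hmox1 4.05 kb upstream (chr8:75089422-75089721): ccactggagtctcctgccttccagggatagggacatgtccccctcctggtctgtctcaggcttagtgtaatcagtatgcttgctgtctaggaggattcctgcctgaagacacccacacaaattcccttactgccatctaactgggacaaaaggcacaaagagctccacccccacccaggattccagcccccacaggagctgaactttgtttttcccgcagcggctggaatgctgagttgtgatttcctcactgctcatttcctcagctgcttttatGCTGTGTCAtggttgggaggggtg

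Over all 67 regions, 17 or 25.4% held TGACNNNGC in the 300 bases around the summit, against 16.5% of the 63290 regions searched, and with windows at the region's midpoint the figures were 13 regions or 19.4% against 15.7%. TGANTCAGC was in 7 (10.45% against 5.04%), and the AP-1 site TGACTCA in 12 (17.9% against 22.1%). Both TGANTCAGC and the centring on the summit were added after sequences had been seen, so shares that use them are descriptive and not a test. A match describes letters and is not a bound site. In the RefSeq promoter table, which listed 8 of the 10 genes with 11 windows of 250 bases, TGACNNNGC stood in 3 windows, those of Gstm5, Gclm and Txnrd1, against 10.2% of 32851 windows of that length. TGANTCAGC stood in 2, those of Srxn1 and Gstp1, against 1.02%, and TGACTCA in 3, against 4.5%. The 3 windows with TGACNNNGC are printed because these genes, unlike Srxn1, were not called at any age. That of Txnrd1 lies before minor starts, and the window before its leading start, with 85.8% of its FPKM, held no match.
Gstm5 (chr3:107895604-107895820, plus strand): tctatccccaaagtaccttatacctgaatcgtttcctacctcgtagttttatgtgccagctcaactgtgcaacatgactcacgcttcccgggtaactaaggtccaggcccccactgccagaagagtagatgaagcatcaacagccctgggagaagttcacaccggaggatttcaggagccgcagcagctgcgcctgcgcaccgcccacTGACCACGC
Gclm (chr3:122245307-122245556, plus strand): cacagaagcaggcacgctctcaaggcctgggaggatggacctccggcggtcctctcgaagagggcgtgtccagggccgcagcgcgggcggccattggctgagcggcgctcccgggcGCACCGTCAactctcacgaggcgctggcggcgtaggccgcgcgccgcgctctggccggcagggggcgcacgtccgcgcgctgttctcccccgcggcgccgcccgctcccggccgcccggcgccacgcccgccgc
Txnrd1 (chr10:82858956-82859178, plus strand): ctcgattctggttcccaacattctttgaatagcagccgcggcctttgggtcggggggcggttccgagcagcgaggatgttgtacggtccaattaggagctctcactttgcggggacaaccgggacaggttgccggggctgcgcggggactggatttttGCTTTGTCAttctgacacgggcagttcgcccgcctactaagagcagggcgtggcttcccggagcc

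In the rat cells, none of the 8 genes was called for TSA against DMSO, where 2.13% of all tested genes were, 1.81% higher and 0.316% lower. Of these 8, 3 had an unadjusted p under 0.05 in limma, against 2699 of all 13625 tested genes. These 3 were all transferases and all higher with TSA, and limma-voom on estimated reads called none of the 8 either. The replicate 3 libraries stood apart in both groups, and log2 fold changes without both, an alternative added after the data were seen, are given for all 8 genes. Their smooth muscle marker sums were 2374 and 1607 FPKM against 631 to 957 in the other 4 libraries. Macrophage marker sums were 1015, 1031 and 489 with DMSO and 541, 461 and 406 with TSA. Cardiomyocyte marker sums ran from 12321 to 15767 with DMSO and from 11571 to 23795 with TSA, and fibroblast sums from 7004 to 7910 and from 4119 to 6577. The part of these differences in the values below was not tested.

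**Figure D5:**
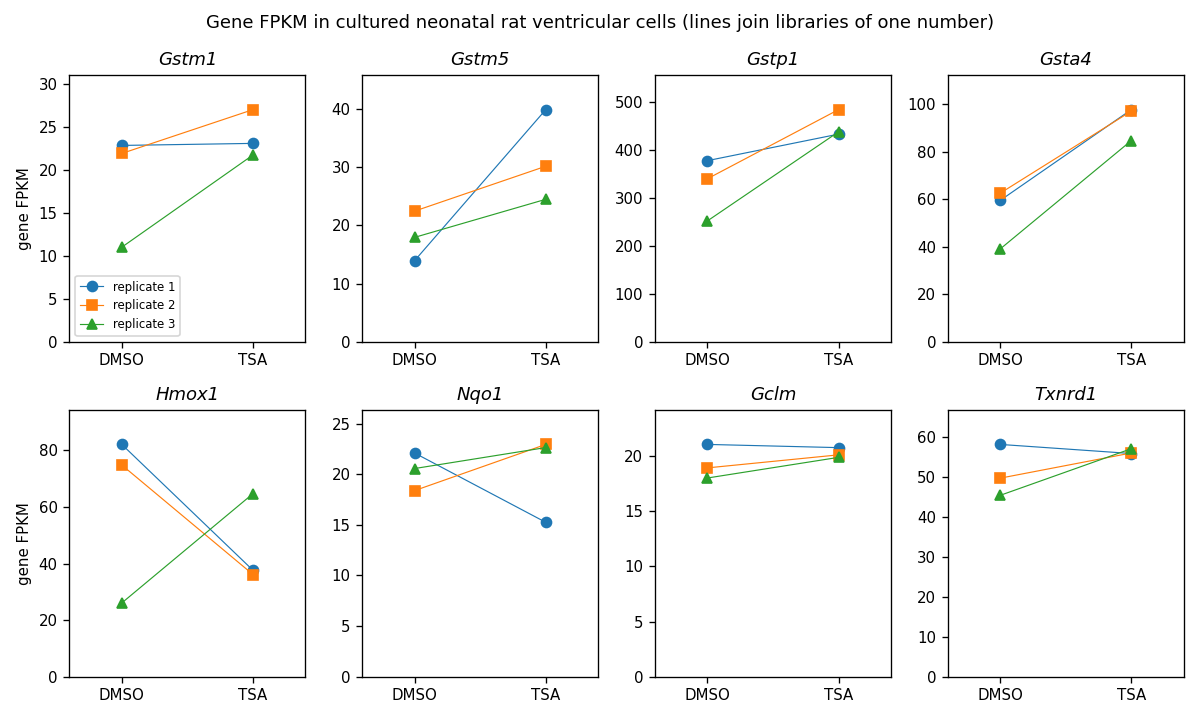
FPKM of the 8 genes with a rat row (vertical axes, linear and from 0) in the DMSO and TSA libraries, with a colour and symbol for each replicate number and lines joining libraries of the same number. The 3 TSA values of Gsta4, Gstm5 and Gstp1 lie above all 3 DMSO values, and the replicate 3 line of Hmox1 runs opposite to the other pair.

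Groups did not overlap for 3 of the 8 genes, Gsta4, Gstm5 and Gstp1, against 27.2% of all tested genes. Gsta4 read 59.4, 62.5 and 39.0 FPKM with DMSO and 97.6, 97.0 and 84.6 with TSA, the largest of the 8 differences with all libraries in, though not without both replicate 3 libraries, with a log2 fold change of 0.81 (SE 0.19, limma adjusted p = 0.0652). With the replicate number as a block the adjusted p was 0.0381, and without both replicate 3 libraries the value was 0.67 (adjusted p = 0.00348), in each case short of the fold limit. Gstm5 read 13.9, 22.5 and 17.9 FPKM with DMSO and 39.9, 30.2 and 24.5 with TSA (log2 fold change 0.76, SE 0.22, adjusted p = 0.121, and 0.93 with adjusted p = 0.0534 without both replicate 3 libraries). Gstp1 read 377, 340 and 252 FPKM with DMSO and 433, 484 and 437 with TSA (0.50, SE 0.16, adjusted p = 0.151, and 0.35 with adjusted p = 0.0418 without both). Gstm1 overlapped, at 22.8, 21.9 and 10.98 against 23.0, 27.0 and 21.7 FPKM (0.41, SE 0.27, adjusted p = 0.465, and 0.15 with adjusted p = 0.307 without both).

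Hmox1 read 82.1, 74.9 and 26.0 FPKM with DMSO and 37.6, 36.1 and 64.7 with TSA. In replicates 1 and 2 it was lower with TSA and in replicate 3 higher, and the log2 fold change was -0.29 (SE 0.45, limma adjusted p = 0.787). Without both replicate 3 libraries it was -1.07 (SE 0.07, adjusted p = 0.00231), the 1 call among the 8 genes under that choice. Macrophages, which clear heme, can carry much Hmox1. Their marker sum was highest in DMSO replicates 1 and 2, where Hmox1 was highest too, but lowest in TSA replicate 3, where Hmox1 was the highest of the other 4, and its part in the result was not tested. The NRF2 targets Nqo1 (22.1, 18.4 and 20.6 against 15.3, 23.0 and 22.7 FPKM), Gclm (21.1, 19.0 and 18.04 against 20.8, 20.1 and 19.9) and Txnrd1 (58.2, 49.8 and 45.5 against 56.0, 56.1 and 57.2) all overlapped. Their log2 fold changes were -0.02 (SE 0.17), 0.07 (SE 0.10) and 0.15 (SE 0.11), with limma adjusted p-values of 0.958, 0.772 and 0.53. Without both replicate 3 libraries they were -0.10, 0.03 and 0.06. Nfe2l2 read 51.2, 52.4 and 52.5 FPKM against 49.3, 50.4 and 49.1 (-0.07, SE 0.08, adjusted p = 0.704). Keap1 was at -0.22 (SE 0.13) and Bach1 at -0.07 (SE 0.16).

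Elsewhere in the pathway lists TSA gave 3 calls, all higher. They were Ephx1 of 9 other detoxification genes, at 12.4, 11.9 and 12.4 FPKM with DMSO and 33.8, 35.1 and 24.4 with TSA (log2 fold change 1.26, limma adjusted p = 0.0122), Gpx3, a secreted peroxidase, of 12 glutathione genes (1.07, adjusted p = 0.0332), and Gstt3 of 12 other transferases (2.03, adjusted p = 0.0349). Of these calls, Ephx1 had also risen with age in the mouse. Gpx3 had not, at 101 and 139 FPKM at E18.5, then 31.4 and 134 (P1), 32.3 and 33.8 (P3) and 84.7 and 45.3 (P7). Both P3 values were below both at E18.5. The mouse values of Gstt3 are not reported here. Gsta4, which was not called with TSA, had not risen with age either.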

How the data were processed

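RNA-seq and ATAC-seq files of the mouse and RNA-seq files of the rat were used, and the HiChIP samples were not analysed here. Per the labels, the authors aligned RNA reads with HISAT2 2.1.0 to mm10 or rn6 and quantified annotated transcripts with StringTie 1.3.5. The deposited transcript files hold FPKM, TPM and per-base coverage, each normalized or averaged by StringTie. FPKM was summed by gene identifier, and the listed genes were then picked by symbol. TPM was an alternative, and coverage gave estimated read numbers at a read length of 150 bp. ATAC reads were trimmed with cutadapt, aligned with Bowtie2, cleared of duplicates with Picard and passed to MACS2 by the authors, one library at a time. The deposited peak files give a score, a fold ratio of enrichment at the summit, and −log10 p and −log10 q values.

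Genes reaching an FPKM of 1 in 2 mouse or 3 rat libraries were tested with limma 3.58.1 (R 4.3.3) on log2(FPKM + 1) with all groups of a species in 1 fit and Benjamini-Hochberg adjustment. The code was tested on simulated data. Values under alternative scaling, filters, pseudocounts, models and left-out libraries were computed. All 3 same-numbered rat pairs deviated together from their group means (r = 0.224, 0.194 and 0.346), while unlike-numbered pairs had r from -0.27 to 0.167. Whether the numbers mark true pairs was not settled. The main rat fit had no block, so rat p-values are unpaired unless a block is named. Peaks were merged with bedtools 2.31.1, and a region held by 2 or more libraries was kept. The form TGANTCAGC and the centring of windows on the summit were added after sequences had been seen. Named were all 10 genes, Nfe2l2, Keap1 and Bach1, and up to 4 called genes per pathway list with the largest change at P7 and with TSA. These genes and lists were chosen with earlier results of these data known. Intervals for depth were not formed, since FPKM files carry no counts.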

Additional observations from a re-analysis of the deposited data

How the results depend on the processing

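Over the alternatives tried, 1062 of the recomputed fold changes of the 10 genes stayed on their side of the calling threshold, 9 gained a call and 9 lost one. No called value changed sign, while 32 of the 959 called in neither fit did. Nqo1 at all 3 ages, and Gstm1 and Gstm2 at P7, were called under all 16 alternatives. With single libraries left out, the number of genes called ran from 1 to 2 at P1, 1 to 2 at P3 and 3 to 5 at P7 against E18.5, and from 0 to 1 for P7 against P1. At P3 it was 1 with limma-voom and 1 with median-of-ratios size factors, where Gstm1 stood at 0.97 and 0.81, and 3 with TPM, where Srxn1 was added (1.44, adjusted p = 0.0368). Srxn1 at P7 was also not called without the expression filter (adjusted p = 0.114) or with 2 time points alone (adjusted p = 0.0579), and Gstp1 was called with TPM (1.20). For TSA it was 1 without both replicate 3 libraries, where 549 of all rat genes were called against 290, a number that ran from 33 to 458 with single libraries left out and was 79 with a mean FPKM of at least 5. Promoter peaks in both libraries numbered 3 at P1 with stricter peaks (24.1% of all tested genes) and 6 at P7 with equal numbers of top peaks (45.2%).

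Among the lists at P7, the number risen ran over all settings from 5 to 6 for NADPH supply, 6 to 8 for other detoxification genes, 2 to 6 for other transferases, and 2 to 5 for the glutathione list and for the heme and iron list. Over all genes 2258 were called at P1 and, with TPM, 3547. For P7 against P3 the number was 496 and, without the filter, 15.

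Size factors moved the median log2 fold change of all genes at P7 from 0.14 to -0.01 and the split of all calls from 2155 higher and 1715 lower to 1730 and 2075. Same-numbered mouse libraries deviated from their group means with r from -0.096 to 0.171. With 2 libraries per age each unlike-numbered r is the same value with its sign turned. Whether the mouse numbers mark pairs was therefore not settled. With a replicate block Srxn1 was called at P3 (1.18, adjusted p = 0.0421), and in the rat the block changed no call of the 8 genes. With 2 libraries per age, and 1 after leaving one out, a lone library is assumed to vary like the others. FPKM gives no counts, so what depth limits was not measured.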
